A study of Homo sapiens with 6 samples.

Results

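The genes described here are 10 genes of the YAP-TEAD pathway, taken by name from a table of read counts that lists 31831 genes. They are the coactivators YAP1 and WWTR1 (whose protein is TAZ), the transcription factors TEAD1 and TEAD4, the regulators LATS2, AMOTL2 and AJUBA, and the target genes CCN1, CCN2 and ANKRD1. All 10 were found in the table and all 10 passed the low-count filter, as did 17142 genes in all. The cells were HK-2, a human cell line derived from the proximal tubule of the kidney, and all of them were kept in 30 mM glucose for 72 h. The control group (HG-NC, 3 libraries) carried a control vector and the other group (HG-OE, 3 libraries) overexpressed hnRNP-F, an RNA-binding protein of splicing. The labels call the control a plasmid, and the methods of the study describe a lentivirus for both groups. The study calls the libraries of a group biological replicates, and its methods describe parallel wells for each group without saying whether these were transduced separately. The p-values set the difference of the groups against the spread between these libraries. If the wells were not transduced separately, the p-values do not cover variation between transductions.

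YAP and TAZ are coactivators without a DNA-binding domain of their own, and they switch on genes by binding TEAD factors in the nucleus. The Hippo pathway restrains them. In it the MST kinases STK3 and STK4 act with SAV1 on the LATS kinases, and LATS phosphorylates YAP and TAZ, which are then held in the cytoplasm or degraded. In epithelial cells, the pathway responds to cell contact, stretch and the actin cytoskeleton. Most of this regulation acts on protein and not on the mRNA that was measured here.

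CCN2 and ANKRD1 are textbook targets with TEAD sites close to the start of transcription, and their promoters are shown because one of these mRNAs was lower in HG-OE and the other was not. The 250 bases before the start are printed 5′ to 3′ on the minus strand, from RefSeq on GRCh38.p14, with matches to GGAATG or CATTCC (the TEAD motif on either strand) and to TGANTCA (the AP-1 motif) in capitals. CCN2 is shown from chr6:131951373-131951622 and ANKRD1 from chr10:90921088-90921337.
CCN2: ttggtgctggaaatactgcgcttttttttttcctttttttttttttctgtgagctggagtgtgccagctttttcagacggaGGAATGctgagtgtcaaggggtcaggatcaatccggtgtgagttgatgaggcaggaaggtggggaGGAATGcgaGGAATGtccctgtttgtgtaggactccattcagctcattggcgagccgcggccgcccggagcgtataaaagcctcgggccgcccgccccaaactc
ANKRD1: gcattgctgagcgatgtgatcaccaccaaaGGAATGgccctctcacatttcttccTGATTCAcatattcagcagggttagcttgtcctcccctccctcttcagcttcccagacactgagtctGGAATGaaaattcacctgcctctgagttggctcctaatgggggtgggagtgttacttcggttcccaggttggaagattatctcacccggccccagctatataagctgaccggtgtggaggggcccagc

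CCN2 held GGAATG 3 times, beginning 169, 104 and 95 bases before the start, and had no AP-1 match. ANKRD1 held GGAATG 2 times, beginning 220 and 128 bases before the start, with 1 AP-1 match (TGATTCA) at 195 bases before it. No match overlapped another. In windows of 300 bases (250 before and 50 after the start), 4928 of 35116 RefSeq promoters (14%) held at least 1 TEAD motif, 1.37% held at least 2 and 0.128% held at least 3. The AP-1 motif was in 7.71% of them. Promoters of 7 of the 10 genes were matched by symbol, and TEAD1, TEAD4 and CCN1 were not. YAP1 held 1 TEAD motif, 162 bases before its start, and LATS2 held 1 within the first bases after its start. WWTR1, AMOTL2 and AJUBA held none. The window of WWTR1 starts at a transcript that lies inside the longer gene given by GENCODE. A CArG box, the motif of SRF, was in none of the 7 windows and in 1.29% of all promoters. These matches are letters in a short window and not measured binding sites.

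Each library held 25507595 to 29444841 counts. Of the 12 proximal tubule markers checked, only PAX8 and SLC5A2 reached 1 CPM (the count per megacount of a library, with TMM scaling) in all 6 libraries, while LRP2 was at 0 in HG-NC and AQP1 averaged 0.157 CPM there. PAX8 had 603 to 655 CPM in HG-NC and 408 to 472 CPM in HG-OE. The epithelial markers KRT8, KRT18, KRT19, EPCAM and CDH2 reached 1 CPM in all 6 libraries, and CDH1 reached it only in HG-OE replicate 3. Each of these 5 differed between the groups at an adjusted p under 0.05 (edgeR), with log2 fold changes of 1.35 for KRT8, 0.76 for KRT18, -0.55 for KRT19, -0.56 for EPCAM and 0.25 for CDH2. KRT8 had 1.11 without HG-OE replicate 3. KRT18 had 205 to 207 CPM in HG-NC and 278, 282 and 488 CPM in HG-OE replicates 1, 2 and 3. KRT19 had 222 to 238 CPM in HG-NC and 138, 147 and 191 CPM in HG-OE. The part of these marker changes in the changes of the members was not tested. HG-OE replicate 3 stood apart. Its counts differed from those of HG-OE replicates 1 and 2 with a chi-square per degree of freedom of 13.2 and 12.8, over 13832 genes. Replicates 1 and 2 of HG-OE differed from each other with a value of 3. In the study's own summary, this library had the lowest share of uniquely mapped reads among the high-glucose libraries. The summed CPM of 7 liver markers was 276 in HG-OE replicate 3 against 1.22 to 7.91 in the remaining 5 libraries, and that of 7 squamous markers was 71.6 against 6.43 to 8.89. In these lists ALB had 4359 counts in this library, against 0 to 78 in the others. Over all libraries, the summed CPM was 31.9 to 41.8 for fibroblast markers, 0.393 to 1.38 for endothelium, 1.20 to 2.60 for blood cells and 0.512 to 1.54 for podocytes. HNRNPF, the overexpressed gene, stood at 311 ± 7.23 CPM in HG-NC against 435 ± 14.9 CPM in HG-OE (means of 3 libraries with their SD), for a log2 fold change of 0.48 (adjusted p = 2.80e-07, edgeR). In bulk samples, fewer cells of a type and less RNA per cell cannot be told apart.

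CCN1 and CCN2 fell by about the same proportion in HG-OE, and WWTR1, TEAD1 and LATS2 fell by less. No member was higher at an adjusted p under 0.05 (edgeR). Of the 10 genes, 5 had an adjusted p under 0.05 in edgeR's quasi-likelihood test, and all 5 were lower. Over all genes tested this threshold was passed by 51.8%, with 25.9% higher and 25.9% lower in HG-OE. Among the 8470 genes averaging 500 or more counts, a level that all 10 members exceed, it was passed by 66.6%, so the share of members that changed (5 of 10) was not above the background. None of the 10 reached the 2-fold change that the study required, which 5.82% of all genes tested reached at an adjusted p under 0.05. The libraries of the groups did not overlap for 6 members (60.0%), against 59.0% of all genes. These were the 5 lower genes and YAP1, which was slightly higher in HG-OE. The median log2 fold change of the members was -0.18, against 0.011 over all genes tested. Taken without sign, the median was 0.18 for the members and 0.27 over all genes tested. Among the genes averaging 500 or more counts it was 0.22. The falls of WWTR1, TEAD1 and LATS2 (-0.23, -0.23 and -0.22) were thus of a size common among such genes. Without HG-OE replicate 3, the same 5 genes had an adjusted p under 0.05, and 53.9% of all genes tested did.

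**Figure D1:**
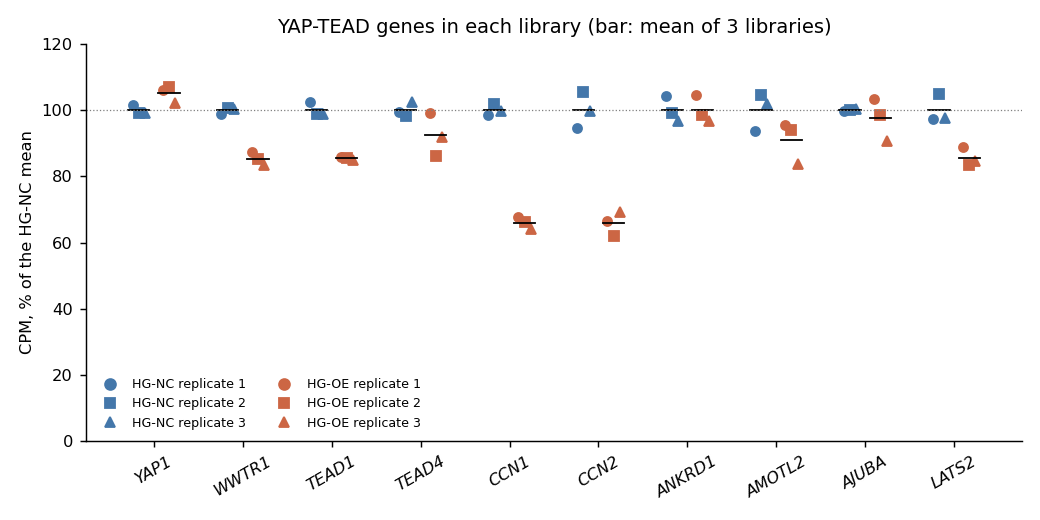
Each point is the CPM of 1 gene in 1 library as a percent of that gene's HG-NC mean, with HG-NC in blue, HG-OE in orange, replicates by marker shape and a bar at the mean of 3 libraries. The 3 HG-OE points of CCN1 and of CCN2 lie well below 100%, those of WWTR1, TEAD1 and LATS2 lie below it by less, and those of ANKRD1 lie among the HG-NC points.

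YAP1 (ENSG00000137693.14, chromosome 11, 102110447 to 102233424, GRCh38) encodes YAP. It had 103, 100.2 and 100.2 CPM in HG-NC replicates 1, 2 and 3 and 107, 108 and 103 CPM in HG-OE replicates 1, 2 and 3. The groups were only just apart, since the highest HG-NC library was at 1.017 times the HG-NC mean and the lowest HG-OE library at 1.022 times. The log2 fold change was 0.07 (95% interval -0.01 to 0.16, adjusted p = 0.149, edgeR). WWTR1 (ENSG00000018408.15, chromosome 3, 149517235 to 149736714) had 267, 272 and 271 CPM in HG-NC and 235, 230.0 and 225 CPM in HG-OE. Every HG-OE library was below every HG-NC library, and WWTR1 fell by 14.7%, a log2 fold change of -0.23 (SE 0.0367, adjusted p = 1.37e-04). With values per transcript length (FPKM), which allow genes to be compared, YAP1 was at 0.496 ± 0.0121 of the WWTR1 level in HG-NC, while in HG-OE it was at 0.611 ± 0.00977 (mean ± SD, n = 3). This ratio was 0.488 to 0.510 in the HG-NC libraries and 0.603 to 0.622 in the HG-OE libraries, with no overlap. WWTR1 mRNA was thus the more abundant coactivator mRNA in all 6 libraries, by a narrower margin in HG-OE.

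TEAD1 (ENSG00000187079.20, chromosome 11, 12674421 to 12944737) had 80.2, 77.4 and 77.5 CPM in HG-NC and 67.3, 66.9 and 66.5 CPM in HG-OE. It fell by 14.6%, with a log2 fold change of -0.23 (SE 0.0417, adjusted p = 4.45e-04, edgeR). TEAD4 (ENSG00000197905.10, chromosome 12, 2959330 to 3040676) had 35.4, 35 and 36.5 CPM in HG-NC and 35.3, 30.7 and 32.8 CPM in HG-OE. HG-OE replicate 1 lay among the HG-NC libraries. Its log2 fold change was -0.11 (95% interval -0.24 to 0.02, adjusted p = 0.133), and without that library -0.17 (adjusted p = 0.0465, with 0.0465 to 0.449 over the 14 alternative settings). Both factors bind the same DNA motif. Per transcript length, TEAD1 was at 0.468 ± 0.0161 of the TEAD4 level in HG-NC and at 0.433 ± 0.0293 in HG-OE, and these ranges overlapped.

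Among the regulators, LATS2 (ENSG00000150457.9, chromosome 13, 20973036 to 21061586) encodes a kinase that inactivates YAP and TAZ and is itself a target gene of theirs. It had 31.6, 34.1 and 31.7 CPM in HG-NC and 28.9, 27.0 and 27.5 CPM in HG-OE, and it fell by 14.4% (log2 fold change -0.22, SE 0.0583, adjusted p = 0.00539, edgeR). AMOTL2 (ENSG00000114019.15, chromosome 3, 134355347 to 134375479), an angiomotin that binds YAP and is also a target gene, had 164, 183 and 178 CPM in HG-NC and 167, 165 and 147 CPM in HG-OE. The groups overlapped, with HG-OE replicate 3 the lowest library. The log2 fold change was -0.14 (SE 0.0549, adjusted p = 0.0516), the adjusted p was under 0.05 in 6 of 14 other settings, and without HG-OE replicate 3 the log2 fold change was -0.08 (adjusted p = 0.112, with 0.0238 to 0.209 over the settings). On the same strand, AMOTL2 overlaps RPL39P5, a pseudogene whose counts came to 13.9% of those of AMOTL2, so how reads were split between them is uncertain. AJUBA (ENSG00000129474.16, chromosome 14, 22971177 to 22982551), a LIM protein that can bind and restrain LATS kinases, had 404, 407 and 407 CPM in HG-NC and 420.0, 400.0 and 368 CPM in HG-OE. HG-OE replicate 1 was above and HG-OE replicate 3 below all HG-NC libraries, and the log2 fold change was -0.04 (95% interval -0.13 to 0.06, adjusted p = 0.537). Replicate 3 is the library with the liver and squamous markers, and their part in the low AMOTL2 and AJUBA values was not tested.

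CCN1 (ENSG00000142871.18, chromosome 1, 85580761 to 85584589), formerly CYR61, encodes a secreted matricellular protein and was the most abundant member. It had 1951, 2016 and 1977 CPM in HG-NC and 1344, 1312 and 1269 CPM in HG-OE. All HG-OE libraries lay far below all HG-NC libraries, and CCN1 fell by 34.0% (log2 fold change -0.60, SE of the log2 value 0.0336, adjusted p = 1.17e-08, edgeR). By counts it ranked 24 to 25 among all genes in the HG-NC libraries and 53 to 65 in the HG-OE libraries. CCN2 (ENSG00000118523.6, chromosome 6, 131948176 to 131951372), formerly CTGF, encodes a related protein known for its part in kidney fibrosis. It had 255, 284 and 269 CPM in HG-NC and 179, 167 and 186 CPM in HG-OE, with no overlap, and it fell by 34.0% as well (log2 fold change -0.60, SE 0.0498, adjusted p = 3.78e-07). Per transcript length, CCN1 was at 4.66 ± 0.178 times the CCN2 level in HG-NC and at 4.67 ± 0.333 times in HG-OE.

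ANKRD1 (ENSG00000148677.7, chromosome 10, 90912096 to 90921087), a nuclear and sarcomeric ankyrin repeat protein whose gene is often read beside CCN1 and CCN2, differed from both. It had 282, 267 and 261 CPM in HG-NC and 282, 266 and 261 CPM in HG-OE. The groups lay on top of each other, with a fold change of 0.999 and a 95% interval of -0.09 to 0.09 on the log2 scale (adjusted p = 0.988, edgeR). Set against ANKRD1 in the same library and per transcript length, CCN1 was at 3.56 ± 0.174 times its level in HG-NC but 2.35 ± 0.0423 times in HG-OE, and CCN2 was at 0.765 ± 0.0637 times its level in HG-NC but 0.505 ± 0.0363 times in HG-OE (mean ± SD over 3 libraries). Neither ratio overlapped between the groups. An exact permutation test on CPM (two-sided, 1 gene at a time) gave p = 0.1 for the 6 members without overlap, the smallest p that 3 libraries against 3 allow.

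**Figure D2:**
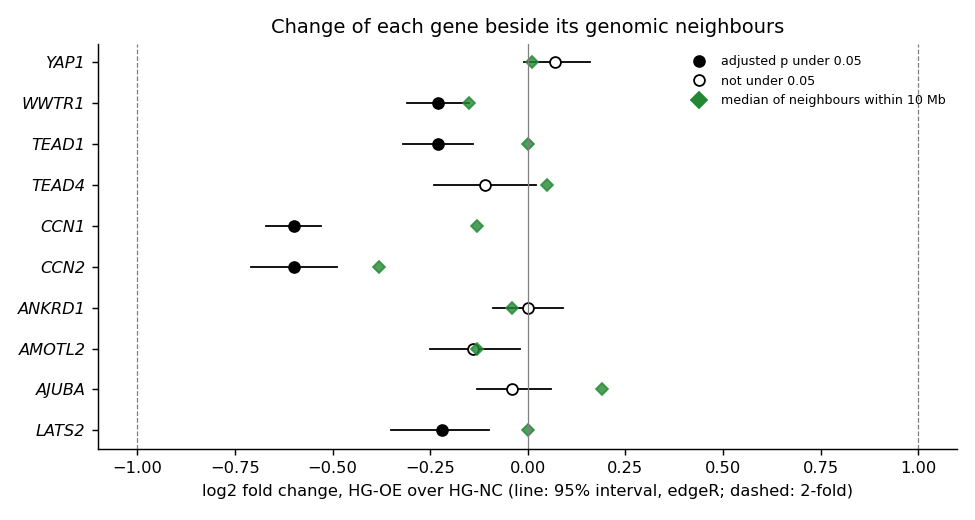
Points give the log2 fold change of each gene (HG-OE over HG-NC) with its 95% interval from edgeR, filled where the adjusted p is under 0.05, and diamonds give the median over the neighbouring genes within 10 Mb. CCN1 and CCN2 stand at -0.60, and the neighbours of CCN2 have a median of -0.38.

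The changes were also set against those of the genes around each member. CCN2 had 53 neighbours within 10 Mb that averaged 100 or more counts, and these had a median log2 fold change of -0.38, and 40 of them were lower at an adjusted p under 0.05. With that median taken off, CCN2 stood at -0.22. The 72 neighbours of CCN1 had a median of -0.13, and with it taken off CCN1 stood at -0.47. The 57 neighbours of WWTR1 had a median of -0.15, which left -0.08 of its fall, and the 100 neighbours of AMOTL2 had a median of -0.13, which left -0.01. TEAD1 and LATS2 lay among neighbours with medians of 0.00, so their values of -0.23 and -0.22 did not move. AJUBA lay among neighbours that were higher (median 0.19), and its value relative to them was -0.22. The part of these regional differences in the changes of the members was not tested.

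**Figure D3:**
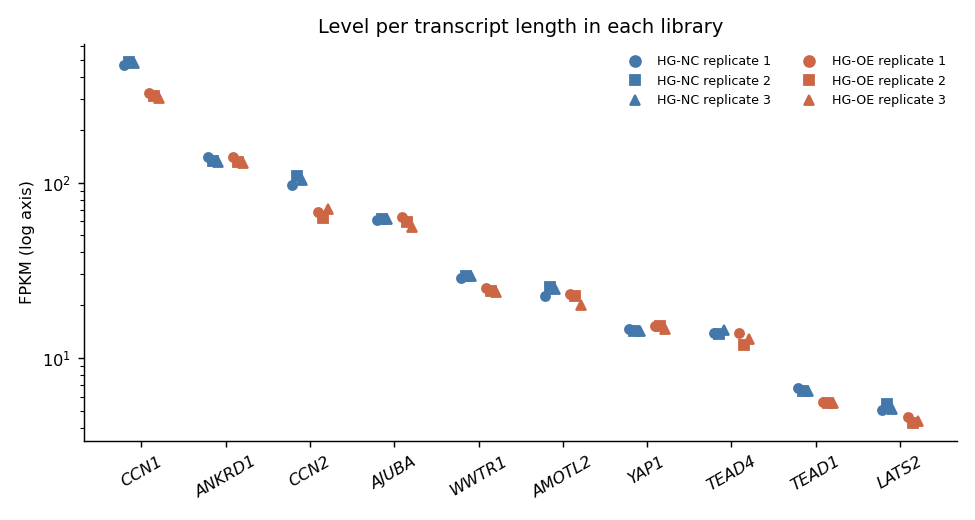
Each point is the FPKM of 1 gene in 1 library on a log axis, with genes ordered by their HG-NC mean, HG-NC in blue and HG-OE in orange. CCN1 stands highest and LATS2 lowest in both groups.

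The levels per transcript length spanned a wide range. In HG-NC, CCN1 had 479 ± 8.20 FPKM, ANKRD1 135 ± 4.77, CCN2 103 ± 5.67 and AJUBA 61.7 ± 0.430 (mean ± SD, n = 3). WWTR1 had 28.9 ± 0.347 FPKM, AMOTL2 24.2 ± 1.4, YAP1 14.3 ± 0.178, TEAD4 14 ± 0.374, TEAD1 6.55 ± 0.123 and LATS2 5.18 ± 0.220. CCN1, ANKRD1 and CCN2 thus stood above the coactivators and the TEAD factors, while AMOTL2 lay below WWTR1 and LATS2 below all other members, and of the neighbours in this order only YAP1 and TEAD4 overlapped between libraries. The order was the same in HG-OE, where CCN2 (67.3 ± 3.90 FPKM) and AJUBA (59.6 ± 4.08) overlapped and YAP1 and TEAD4 no longer did. CCN1 had 313 ± 9.98 FPKM in HG-OE. Together the 10 genes took 0.356% to 0.368% of all counts in the HG-NC libraries and 0.267% to 0.287% in the HG-OE libraries, of which CCN1 alone took 0.194% to 0.202% and 0.126% to 0.135%.

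Of 27 kinases and upstream regulators, 26 passed the low-count filter (DCHS1 did not), and 6 were higher and 12 lower at an adjusted p under 0.05, with a median log2 fold change of -0.19. This is 69.2% of those tested, near the 66.6% among genes averaging 500 or more counts and above the 51.8% among all genes tested. With the medians of the neighbours taken off, the median of the list was -0.09. The largest falls were those of FRMD6, a FERM protein that acts on the pathway at the membrane (446 ± 0.298 to 247 ± 18.8 CPM, log2 fold change -0.85, adjusted p = 1.42e-08), LATS1, the other LATS kinase (-0.79), MAP4K3 (-0.70) and STK38L (-0.41). LATS1 had 27.9, 27.4 and 27.8 CPM in HG-NC and 17, 15.6 and 15.6 CPM in HG-OE, and its neighbours had a median of -0.44. The medians of the neighbours were -0.33 for MAP4K3, -0.14 for FRMD6 and -0.09 for STK38L. The largest rises were those of AMOTL1 (0.66), an angiomotin like AMOTL2, LIMD1 (0.53), of the same protein family as AJUBA, WWC1 (0.53), which encodes KIBRA, and STK38 (0.49). The values of LIMD1 and WWC1 were close to the medians of their neighbours, 0.53 and 0.46. Of the core kinase cassette, STK3 had a log2 fold change of -0.37 (adjusted p = 8.09e-04, edgeR) and MOB1A had -0.35 (adjusted p = 1.20e-05). Their neighbours had medians of -0.13 and -0.27. STK4 and SAV1 had log2 fold changes of -0.01 each (adjusted p = 0.910 and 0.870). NF2, the merlin gene, had 0.24 (adjusted p = 0.00120) among neighbours with a median of 0.30.

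Of the other TEAD factors, TEAD3 rose from 17.2 ± 1.25 to 25.6 ± 1.27 CPM (log2 fold change 0.57, SE 0.0738, adjusted p = 2.07e-05, edgeR), while TEAD2 was at 40.6 ± 0.655 and 41.1 ± 2.15 CPM (0.02, 95% interval -0.10 to 0.14). Of the VGLL proteins, which compete with YAP and TAZ for TEAD, VGLL4 had a log2 fold change of 0.29 (adjusted p = 6.13e-04), among neighbours with a median of 0.44. VGLL3 did not pass the filter, because it reached the filter in 1 library only. It had 2, 1 and 1 counts in HG-NC, 4 and 2 counts in HG-OE replicates 1 and 2, and 3143 counts (107 CPM) in HG-OE replicate 3. This was seen after its values were examined. HNF4A, with 323 counts there and 0 in each of the others (a count of 0 allows up to 3 counts), was counted in the same library. VGLL2 had a mean of 0.333 counts per library. VGLL1 was looked up by its symbol, was not matched to a single row of the read counts and so was not tested.

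**Figure D4:**
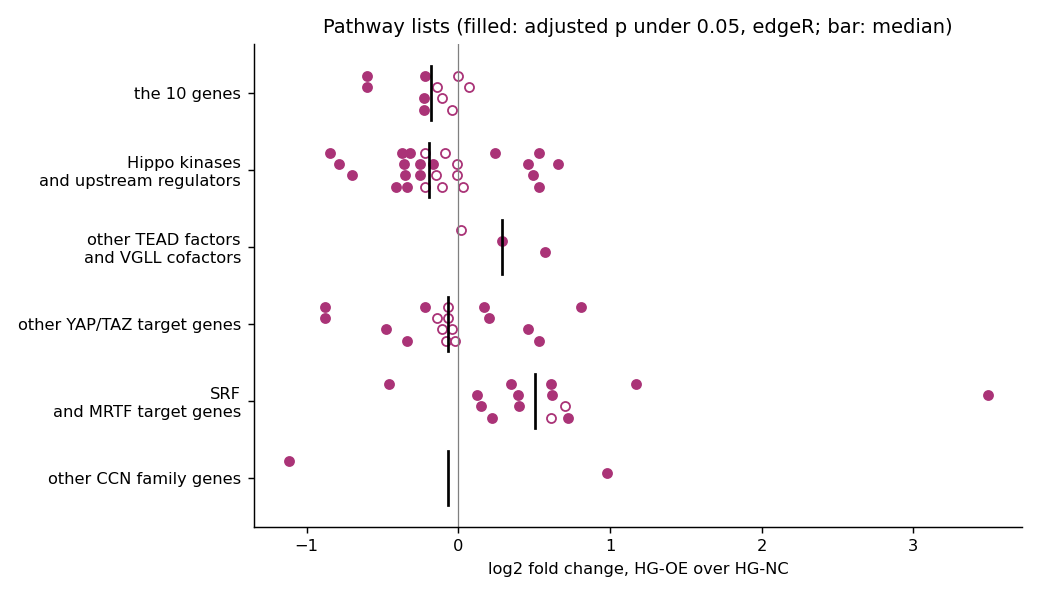
Each point is the log2 fold change of 1 tested gene (HG-OE over HG-NC), by list, filled where the adjusted p is under 0.05, and the bar is the list's median. The YAP/TAZ target genes spread to both sides of 0, and all but 1 of the filled points of the SRF and MRTF list lie above 0.

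In a wider list of 17 target genes of YAP and TAZ, all 17 were tested, 5 were higher, 5 lower and 7 did not pass the test, and the median log2 fold change was -0.07. The 58.8% that passed lie between the 51.8% of all genes tested and the 66.6% of genes averaging 500 or more counts. GADD45A, a stress gene, fell from 467 ± 6.87 to 253 ± 30 CPM, and IGFBP3, which binds insulin-like growth factors, from 196 ± 5.55 to 107 ± 10.7 CPM, both with a log2 fold change of -0.88 (adjusted p = 1.21e-07 and 6.18e-08, edgeR). AXL, a receptor tyrosine kinase and the most counted gene of the list, had -0.34 (adjusted p = 1.80e-05). F3, which encodes tissue factor, had 51.3, 50.7 and 46.3 CPM in HG-NC and 30.7, 25.3 and 50.3 CPM in HG-OE, where only replicate 3 reached the HG-NC level. Its log2 fold change was -0.48 (adjusted p = 0.0299) with all libraries and -0.82 without HG-OE replicate 3. MYOF, which encodes the membrane repair protein myoferlin, rose from 211 ± 6.66 to 305 ± 13.9 CPM (0.53, adjusted p = 3.01e-07), and TGFB2, a ligand of the TGF-β pathway, from 189 ± 4.93 to 259 ± 6.75 CPM (0.46, adjusted p = 4.69e-07). Smaller rises were those of ARHGEF17 (0.20, adjusted p = 0.0266) and NUAK2 (0.17, adjusted p = 0.0143). FOXF2 had the largest log2 fold change among the higher genes (0.81, adjusted p = 0.0353), but a mean of only 22.8 counts per library. With 1 library left out at a time, 2 to 5 genes of the list were higher and 3 to 7 lower.

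CCN3, the only other CCN gene with more than a mean of 50 counts per library, also fell. It had 165, 161 and 163 CPM in HG-NC and 75.7, 77.7 and 71.1 CPM in HG-OE, and its log2 fold change was -1.12 (SE 0.0430, adjusted p = 4.68e-10, edgeR). CCN5 was low, at 0.594 ± 0.318 CPM in HG-NC against 1.18 ± 0.383 CPM in HG-OE (log2 fold change 0.98, adjusted p = 0.0431), with overlapping libraries, and this call was lost under DESeq2, under limma, without a low-count filter and without any 1 of HG-NC replicates 1 and 3 and HG-OE replicates 1 and 2. CCN4 and CCN6 had means of 4 and 0.333 counts per library and were not tested.

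SRF and its coactivators of the MRTF family respond to the same actin cues and share many targets with YAP and TEAD. Of 15 genes of this list, 14 were tested (TPM2 was not), and 11 were higher and 1 lower, with a median log2 fold change of 0.51. Those past the test were 85.7% of the genes tested, against 51.8% of all genes (25.9% higher and 25.9% lower). Among genes averaging 500 or more counts, 66.6% passed it. TAGLN, which encodes the actin-binding protein transgelin, had 20.5, 21.6 and 23.4 CPM in HG-NC and 256, 249 and 231 CPM in HG-OE (log2 fold change 3.49, SE 0.0580, adjusted p = 1.83e-13, edgeR). MYL9, a myosin light chain, rose from 446 ± 6.16 to 1005 ± 48.2 CPM (1.17, adjusted p = 1.64e-10). FLNA and MYH9, for filamin A and a myosin heavy chain, had 0.72 and 0.62. FHL2, the gene that fell, had -0.46 (adjusted p = 1.83e-06). The medians of the neighbours were 0.25 for FLNA, 0.27 for MYH9 and -0.23 for FHL2. They were 0.20 for MYL9 and 0.00 for TAGLN. TPM2 was counted 1 to 5 times in the other libraries and 359 times in HG-OE replicate 3. Without that library, 12 genes of the list were higher and 1 lower.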

How the data were processed

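Poly(A) RNA of 6 HK-2 libraries (3 HG-NC, 3 HG-OE) was sequenced from directional libraries. Reads were trimmed by the authors and mapped to GRCh38 by HISAT2, and only uniquely mapped reads were counted. The counting tool and the use of strand are not given in the sources used here. The deposited counts are whole numbers per gene without normalization, and the deposited FPKM values were computed by the authors per transcript length and sequencing depth. ComBat_seq is named for batch correction, and whether it entered these values is not stated.

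The main test was that of edgeR 4.0.16 in R 4.3.3 (TMM, default low-count filter, quasi-likelihood test, Benjamini-Hochberg adjustment over 17142 genes). The biological coefficient of variation was 0.0683. DESeq2 1.42.0 and limma 3.58.1 served as alternatives. Library totals were 25507595 to 29444841. CPM values are scaled by TMM. Standard errors come from the F statistic. A count of 0 allows up to 3 counts, for counting error only. GENCODE 44 positions matched 31742 of 31831 genes, and 31725 of these lay on the chromosome given by the authors.

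The members and lists were chosen with earlier results of these data known. The lists were written from general knowledge. Genes named from a list had an adjusted p under 0.05 and a mean of at least 50 counts, with at most 4 in each direction, and the most counted marker of each marker list was kept for naming. STK3, STK4, SAV1, MOB1A, NF2, TEAD2, FOXF2, CCN4, CCN5, CCN6, the VGLL genes, TPM2, HNF4A and further markers were named after their values were seen. Steps were tested on simulated data. Comparisons of protein sequences were not made.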

Additional observations from a re-analysis of the deposited data

How the results depend on the processing

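Leaving out 1 library at a time, 5 to 7 members were lower at an adjusted p under 0.05, none was higher and none reached 2-fold. The other edgeR settings, DESeq2 and limma on FPKM gave 5 to 6 lower members, none higher and none at 2-fold, and in these settings CCN1, CCN2, WWTR1, TEAD1 and LATS2 had an adjusted p under 0.05 throughout. The sign turned for ANKRD1 with at least 10 counts in every library (0.01) and, with 1 library left out at a time, for ANKRD1 (-0.04 to 0.03) and AJUBA (-0.08 to 0.01), neither past the threshold. With the replicate block, 6 members were lower, AMOTL2 being added (adjusted p = 0.0450, log2 fold change -0.14), and 8849 genes had an adjusted p under 0.05 against 8887. Libraries sharing a number correlated by 0.0244 to 0.0575 in their deviations from the group means over 12365 genes. Libraries with different numbers correlated by -0.0761 to 0.0295. Deviations from a group mean cancel out within the group, so these correlations depend on each other. All of them were small, and the main test did not take the numbers as pairs. Over all genes, 997 passed both thresholds, against 1539 without a low-count filter and 617 with at least 10 counts in every library. On log2(FPKM + 1), 144 passed with a filter and 138 without one. On log2(FPKM + 0.1) with a filter, 724 passed. The cause of these differences was not tested. Of the wider target list, 3 genes were higher and 3 lower on log2(FPKM + 1) and on log2(FPKM + 0.1), against 5 and 5, and 3 higher without a low-count filter. With the neighbours' medians taken off, the list medians were 0.36 for SRF and MRTF (0.51 before), 0.04 for the wider targets (-0.07), -0.09 for the Hippo regulators (-0.19) and 0.08 for the other TEAD and VGLL genes (0.29). The Hippo median was -0.11 on log2(FPKM + 1) without a filter.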
